A study of Homo sapiens with 8 samples.

Results

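ETV1, ETV4 and ETV5 are the 3 members of the PEA3 group, a branch of the ETS family of transcription factors, and are the genes that the guides of this knockout study target. They were taken as the rows of the deposited gene table that carry these symbols. They make up 3 of 61228 genes in the table, and all 3 were among the 15568 genes with enough counts to test. Messenger RNA was sequenced in 8 libraries of a human breast cancer line, MDA-MB-231 (triple-negative, of metastatic origin), in 4 groups of 2. The knockout monolayers were nucleofected with Cas9, the nuclease that cuts at the site a guide RNA names, and with guides to ETV1, ETV4 and ETV5, and were grown on plastic. The control monolayers carry a label that names a control guide and no Cas9, and the sources used here do not say whether they received the nuclease. The knockout gels held cells with Cas9 and guides to the same genes, grown inside a gel of collagen I. The control gels held cells with Cas9 and a control guide. The medium was DMEM/F12 with 10% serum in every group. Collagenase I freed the cells from the gels before RNA was taken, while monolayers were lysed in place, so the way of harvest and the culture cannot be told apart. Nothing in the sources used here says whether the edited cells were a pool or a clone, or whether replicates were separate cultures. P-values therefore measure the spread between these libraries, which may be technical.

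The PEA3 factors bind DNA through the ETS domain, at sequences with a GGAA core. They stand at the end of the RAS and ERK signalling pathway, which raises both their activity and their transcription. Capicua, encoded by CIC, is a repressor that binds octamers of the form TGAATGAA or TGAATGGA near PEA3 genes and near genes of ERK feedback, and ERK signalling relieves it. The ubiquitin ligase that contains COP1 marks the PEA3 proteins for destruction. In breast cancer cells these factors are known for roles in invasion and in the expression of matrix proteases.

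The sequences decide how far a short read can be told apart between the 3 genes. On GRCh38, ETV1 lies on chromosome 7 at 13891228 to 13991425, ETV4 on chromosome 17 at 43527844 to 43579620, and ETV5 on chromosome 3 at 186046308 to 186110318, each on the minus strand. The runs below are the longest that each pair shares exactly between the longest coding transcript of each gene in GENCODE 29, written 5′ to 3′ on the coding strand. Each one lies in coding sequence of both genes.
ETV1 chr7:13896050-13896066 (exon 14 of 14) and ETV4 chr17:43528706-43528722 (exon 13 of 13): tacaagtttgtgtgtga
ETV1 chr7:13939129-13939146 (exon 7 of 14) and ETV5 chr3:186081058-186081075 (exon 6 of 13): ctatggagaaaagtgcct
ETV4 chr17:43529193-43529225 (exon 12 of 13) and ETV5 chr3:186052088-186052120 (exon 12 of 13): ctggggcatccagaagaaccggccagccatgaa
The run of 33 bases in ETV4 and ETV5 is part of the sequence that encodes the ETS domain. The ETV1 runs are shorter, at 17 bases with ETV4 and 18 bases with ETV5. No window of 50 bases was shared exactly between any pair, among 6691 windows of ETV1, 2380 of ETV4 and 4062 of ETV5. Reads longer than these runs therefore differ between the genes, and the counts of each gene are given as its own. ETV5-AS1, the antisense gene of ETV5, was listed at 0 in every library, and the sources used here give no strand setting for the counting.

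Transcripts of all 3 genes were present in every library, knockout libraries included. Counts of a transcript do not show whether its gene was edited or its protein lost, and neither was measured here. The sources used here give no guide sequences, so cut sites could not be placed. ETV1 had 2244 and 2776 raw counts in the knockout monolayers against 4973 and 3299 in the control monolayers, and 2513 and 2647 in the knockout gels against 4613 and 3953 in the control gels. ETV4 had 1051 and 1122 counts in the knockout monolayers against 2019 and 1437 in the control monolayers, and 1224 and 1185 in the knockout gels against 2016 and 1761 in the control gels. ETV5 had 1944 and 2152 counts in the knockout monolayers against 2779 and 1896 in the control monolayers, and 2137 and 2169 in the knockout gels against 2478 and 1997 in the control gels. Counts of this size carry a counting error of 1.42 to 3.08%, which covers counting alone. Library totals ran from 15824504 to 23896899 counts, and the first control monolayer library is the deepest of them, so the levels below are in CPM, counts relative to library size after TMM scaling.

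ETV1 measured 136 and 151 CPM in the knockout monolayers against 200 and 205 CPM in the control monolayers, and 138 and 141 CPM in the knockout gels against 222 and 217 CPM in the control gels. Every knockout library lay below every control library, in both cultures. ETV4 measured 63.5 and 61.2 CPM in the knockout monolayers against 81.3 and 89.2 CPM in the control monolayers, and 67.1 and 63 CPM in the knockout gels against 96.8 and 96.6 CPM in the control gels. Here too the groups did not overlap. Groups of 2 libraries can stand apart without a true difference, and the share of all tested genes that did so is not given here. The same holds wherever groups are said below not to overlap. ETV5 measured 117 and 117 CPM in the knockout monolayers against 112 and 118 CPM in the control monolayers, and 117 and 115 CPM in the knockout gels against 119 and 110 CPM in the control gels. Its knockout libraries lay inside the range of its control libraries in both cultures. The group means of ETV1 were 139 ± 2.12 CPM in knockout gels, 143 ± 11.2 CPM in knockout monolayers, 219 ± 3.26 CPM in control gels and 202 ± 3.2 CPM in control monolayers (SD, n = 2 each). The highest was that of control gels, and the knockout groups overlapped. For ETV4 they were 65 ± 2.89 CPM in knockout gels, 62.3 ± 1.62 CPM in knockout monolayers, 96.7 ± 0.129 CPM in control gels and 85.2 ± 5.58 CPM in control monolayers, again highest in control gels and with overlapping knockout groups. The group means of ETV5 lay between 114 and 117 CPM, within their spread. In bulk RNA, fewer cells with a transcript and less of it per cell cannot be told apart.

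**Figure D1:**
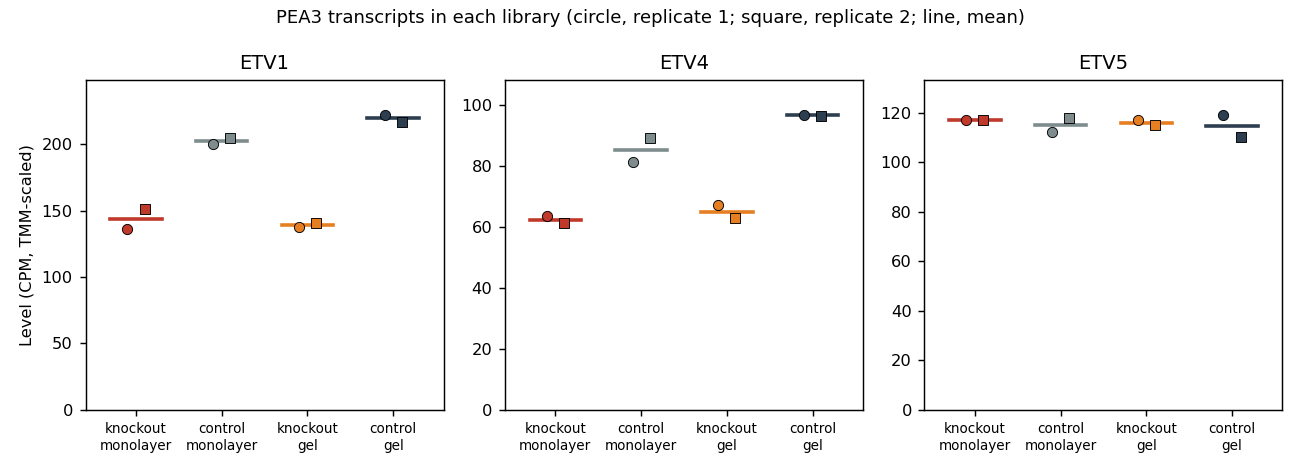
Level of each PEA3 transcript (CPM, TMM-scaled, axis from 0) in the 8 libraries by group, with circles for replicate 1, squares for replicate 2 and a line at the mean of 2 libraries. For ETV1 the knockout libraries sit between 136 and 151 CPM and the control libraries between 200 and 222 CPM, while for ETV5 all 8 sit between 110 and 119 CPM.

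The comparison of knockout with control asks how far each targeted transcript differed. ETV1 fell in both cultures: it fell by 29% in monolayers (95% interval -34 to -23.7%) and fell by 36.5% in gels (-40.9 to -31.7%). On the log2 scale this was -0.50 ± 0.051 (SE, edgeR adjusted p = 3.75e-09) in monolayers and -0.66 ± 0.051 (edgeR adjusted p = 3.1e-12) in gels. ETV4 fell by 0.45 ± 0.061 on the log2 scale in monolayers (edgeR adjusted p = 9.94e-07) and by 0.57 ± 0.06 in gels (edgeR adjusted p = 3.61e-09). ETV5 had log2 differences of 0.03 in monolayers (95% interval -0.08 to 0.14, edgeR adjusted p = 0.718) and 0.02 in gels (-0.09 to 0.13, edgeR adjusted p = 0.808). In percent its interval in monolayers ran from -5.07 to 10.6%, which does not hold a fall of the size of ETV1 or ETV4. So 2 of 3 members fell and none rose in either culture. Over all tested genes 9.6% were lower and 9.6% higher in knockout monolayers, and 12.4% were lower and 11.5% higher in knockout gels. Of all tested genes, 6.86% had a lower log2 change than ETV1 in monolayers and 6.96% in gels, and for ETV4 the shares were 8.16% and 8.69%. With the gene length and GC correction the split in gels became 3056 higher and 1597 lower, against 1786 and 1935, and the calls on all 3 members stayed as they were.

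The members differed from each other in their response, beyond the errors of the fit. The knockout difference of ETV1 minus that of ETV5 was -0.53 log2 in monolayers (95% interval -0.68 to -0.38) and -0.68 in gels (-0.83 to -0.53). That of ETV4 minus that of ETV5 was -0.48 (-0.65 to -0.32) in monolayers and -0.60 (-0.76 to -0.43) in gels. Between ETV1 and ETV4 the difference was -0.05 (-0.21 to 0.11) in monolayers and -0.08 (-0.24 to 0.08) in gels, and both of these intervals include 0.

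**Figure D2:**
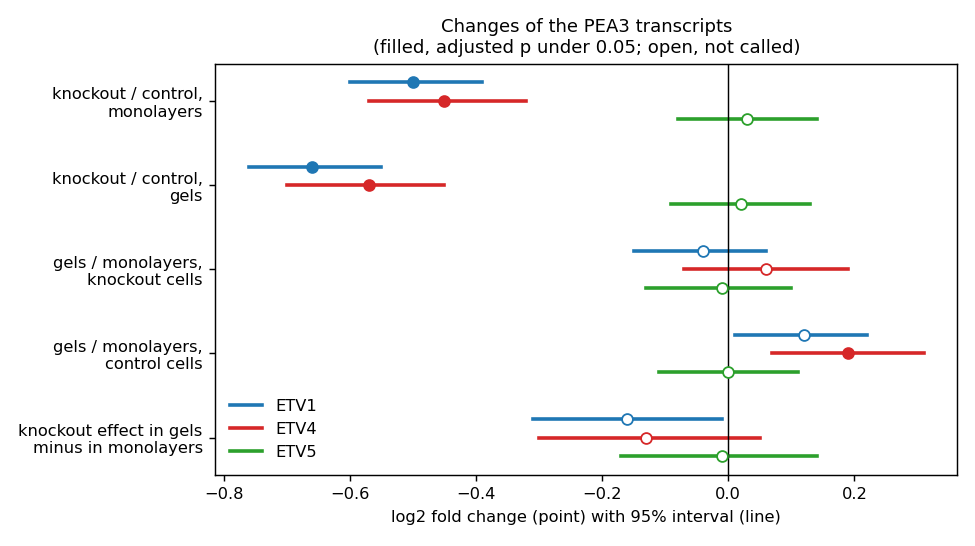
Log2 fold change of ETV1, ETV4 and ETV5 (points) with 95% intervals (lines) in 5 comparisons, the knockout ones at the top. Filled points have an adjusted p under 0.05. The ETV1 and ETV4 intervals lie below 0 in both knockout comparisons and every ETV5 interval includes 0.

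Ratios of raw counts within a library do not depend on how libraries are scaled. The library ratio of ETV1 to ETV5 counts was 1.15 and 1.29 in the knockout monolayers against 1.79 and 1.74 in the control monolayers. It was 1.18 and 1.22 in the knockout gels against 1.86 and 1.98 in the control gels. The groups did not overlap in either culture. For ETV4 to ETV5 the ratio was 0.541 and 0.521 in the knockout monolayers against 0.727 and 0.758 in the control monolayers, and 0.573 and 0.546 in the knockout gels against 0.814 and 0.882 in the control gels. These groups also stood apart. For ETV4 to ETV1 the ratio was 0.468 and 0.404 in the knockout monolayers against 0.406 and 0.436 in the control monolayers, and 0.487 and 0.448 in the knockout gels against 0.437 and 0.445 in the control gels. In monolayers the knockout libraries enclosed the control libraries, and in gels they lay above them.

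**Figure D3:**
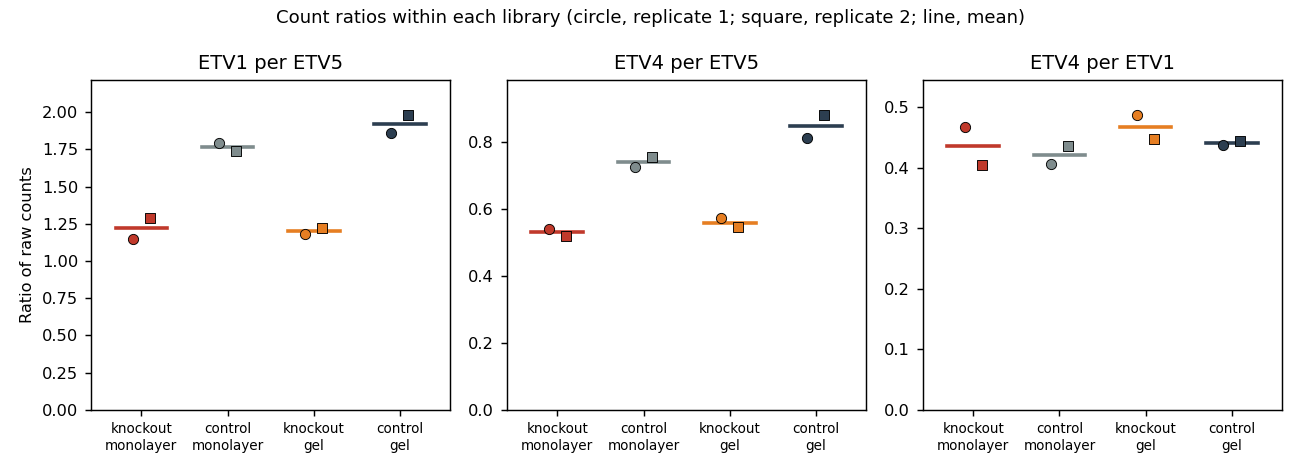
Ratio of raw counts of 2 PEA3 genes within each library (axis from 0), with circles for replicate 1, squares for replicate 2 and a line at the mean. ETV1 per ETV5 lies at 1.15 to 1.29 in the 4 knockout libraries and at 1.74 to 1.98 in the 4 control libraries.

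Levels can be compared between genes per length of transcript. Per kb of merged exons, ETV5 had the highest mean of the 3 in the knockout monolayers, at 20.2 CPM per kb, before ETV4 at 17.3 and ETV1 at 14.9. In the control monolayers the order was ETV4 at 23.6, ETV1 at 21.1 and ETV5 at 19.8 CPM per kb. The knockout gels had ETV5 at 20, ETV4 at 18 and ETV1 at 14.5 CPM per kb, and the control gels ETV4 at 26.8, ETV1 at 22.8 and ETV5 at 19.7. With the longest transcript as the length, the order within each group was the same, with ETV5 first in both knockout groups (28.6 and 28.3 CPM per kb in monolayers and gels) and last in both control groups (27.9 and 27.8).

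The summed PEA3 level was 51.9 and 52.9 CPM per kb in the knockout monolayers against 62.6 and 66.3 in the control monolayers. In gels it was 53.1 and 52 CPM per kb in knockout against 70.4 and 68.2 in control libraries. All 4 knockout libraries lay below all 4 control libraries. The share of ETV5 in that sum was 39 and 38.2% in the knockout monolayers against 30.8 and 30.6% in the control monolayers, and 38 and 38.2% in the knockout gels against 29.1 and 27.7% in the control gels. ETV1 made up 27.1 and 29.7% of the sum in the knockout monolayers against 33.2 and 32.1% in the control monolayers. Among the members and 25 other ETS genes, by mean CPM per kb, ETS1 and ELK3 stood first in each group, at 36.4 and 41.3 in the knockout monolayers and 36.3 and 39.9 in the control monolayers, and at 47.6 and 38.6 in the knockout gels and 47.6 and 46.1 in the control gels. After them came ERF (25.4), ETV5 (20.2), SPDEF (19.6), ELK1 (19), EHF (18.7), ETV4 (17.3), ELF1 (15) and ETV1 (14.9) in the knockout monolayers, and ETV4 (23.6), ERF (21.8), ETV1 (21.1), ETV5 (19.8), SPDEF (17.3) and ELK1 (15.9) in the control monolayers. In the knockout gels SPDEF (20.2), ELK1 (20.1), ETV5 (20), ERF (19.8), ETV4 (18), ELF1 (15.6) and ETV1 (14.5) followed, and in the control gels ETV4 (26.8), ETV1 (22.8), SPDEF (22.7), ERF (21), ETV5 (19.7) and ELK1 (16.9). Over all libraries together, taking the longest transcript as the length changed the order of the genes after ETS1 and ELK3. ERG had 1 count over all libraries together, and FEV, ETV3L, SPI1 and SPIC had none.

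The comparison of gels with monolayers asks whether the PEA3 transcripts differed between the cultures. In knockout cells none of the 3 passed the test: the log2 differences were -0.04 for ETV1 (edgeR adjusted p = 0.532), 0.06 for ETV4 (edgeR adjusted p = 0.47) and -0.01 for ETV5 (edgeR adjusted p = 0.853). With the length and GC correction ETV4 passed, at 0.21 log2 (edgeR adjusted p = 0.00283). In that comparison 20.1% of all tested genes were higher and 17.9% lower. In control cells ETV4 was higher in gels by 0.19 ± 0.059 log2, or 13.8% (95% interval 0.07 to 0.31 log2, edgeR adjusted p = 0.0162), and 16% of all tested genes were higher and 10.7% lower. Its libraries read 96.8 and 96.6 CPM in the control gels against 81.3 and 89.2 CPM in the control monolayers, without overlap. This call was lost without the first control monolayer library (log2 0.10, edgeR adjusted p = 0.391), without the first control gel library (0.19, edgeR adjusted p = 0.105) and without the second (0.19, edgeR adjusted p = 0.0827). It was also lost when counts were scaled by library size alone (log2 0.10, edgeR adjusted p = 0.198) or by upper quartiles (0.14, edgeR adjusted p = 0.0759). ETV1 differed by 0.12 log2 in control cells (95% interval 0.01 to 0.22, edgeR adjusted p = 0.0843) and ETV5 by 0.00 (edgeR adjusted p = 0.976). Scaling also moved the split over all genes: with library size alone 1239 genes were higher and 2804 lower in control gels, and 1699 and 2213 with upper quartiles, against 2486 and 1672 with TMM. In knockout cells library size alone gave 2089 higher and 3539 lower, and upper quartiles 2293 and 3360, against 3122 and 2793 with TMM. FOS, an immediate-early gene, was higher in gels by 6.09 log2 in knockout cells and 6.48 log2 in control cells, and its part in the ETV4 difference was not tested.

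The interaction, the knockout difference in gels minus that in monolayers, passed for none of the 3. It was -0.16 log2 for ETV1 (95% interval -0.31 to -0.01, unadjusted p = 0.034 and adjusted p = 0.211 by edgeR), -0.13 for ETV4 (-0.30 to 0.05, edgeR adjusted p = 0.46) and -0.01 for ETV5 (-0.17 to 0.14, edgeR adjusted p = 0.957). Over all tested genes 2.67% had a positive and 3.94% a negative interaction. With the length and GC correction these became 676 positive and 429 negative genes, against 415 and 613. If the control monolayers received no Cas9, the knockout comparison in monolayers and the interaction also hold the effect of the nuclease.

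Genes above the PEA3 factors were described by lists of known components. Of 23 genes of the ERK pathway from receptors to kinases, 22 were tested. In knockout monolayers 2 were higher and 4 lower, and in knockout gels 1 was higher and 3 lower, with medians of 0 and 0.05 log2 beside 0.01 and 0 over all tested genes. That is 9.09% higher and 18.2% lower in monolayers and 4.55% and 13.6% in gels, where all tested genes had 9.6% and 9.6%, and 11.5% and 12.4%. MAP2K1, which encodes the kinase MEK1, averaged 137 CPM in knockout gels and 167 CPM in control gels (log2 -0.29, edgeR adjusted p = 3.8e-05). EGFR, a receptor that feeds the pathway, averaged 256 CPM in knockout monolayers and 304 CPM in control monolayers (log2 -0.25, edgeR adjusted p = 0.000309), a call that the length and GC correction ended (log2 -0.12, edgeR adjusted p = 0.0662). In gels EGFR averaged 336 CPM in knockout and 317 CPM in control libraries, not called (log2 0.09, edgeR adjusted p = 0.204) but called higher with that correction (0.14, edgeR adjusted p = 0.0215). MET, the receptor of hepatocyte growth factor, averaged 140 CPM in knockout monolayers and 164 CPM in control monolayers (log2 -0.23, edgeR adjusted p = 0.00223), and the call was lost without the first knockout monolayer library (-0.16, edgeR adjusted p = 0.0894). Counts this small moved by more than 1.5 times with single libraries: the number lower in monolayers was 1 without the first knockout library and 2 without the first control library, and the number lower in gels was 1 without either control library or without the second knockout library. The numbers higher were 0 to 2 in monolayers and 0 to 8 in gels over all alternatives.

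Of the Capicua complex, CIC measured 114 and 110 CPM in knockout monolayers against 114 and 114 CPM in control monolayers, and 105 and 101 CPM in knockout gels against 128 and 119 CPM in control gels. It fell in gels (log2 -0.26, edgeR adjusted p = 0.000369), a call that the length and GC correction ended (log2 -0.12, edgeR adjusted p = 0.0712), and was not called in monolayers. ATXN1 and ATXN1L, the partners of Capicua, were called in neither knockout comparison. In the degradation list of 10 genes, with 9 tested, 1 was higher and 1 lower in knockout monolayers, and 0 were higher and 2 lower in knockout gels. As shares these are 11.1% and 11.1% in monolayers (9.6% each way over all tested genes) and 0 and 22.2% in gels (11.5% and 12.4%). COP1, the ligase that recognises PEA3 proteins, had log2 differences of 0.02 and 0.06 in monolayers and gels, without a call. TRIB1, a Tribbles adaptor of COP1, measured 52.9 and 53.4 CPM in knockout gels against 69.7 and 70.1 CPM in control gels (log2 -0.39, edgeR adjusted p = 3.3e-05). TRIB2, another Tribbles gene, rose in knockout monolayers (log2 0.31, edgeR adjusted p = 0.000649), and TRIB3 fell in both cultures (log2 -0.28 and -0.33) but lost its call in 3 of 8 fits that left out 1 library in monolayers and in 2 of 8 in gels.

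Among 6 cofactors of PEA3 proteins, 2 were higher and 1 lower in knockout monolayers, and 1 was higher and 1 lower in knockout gels. With so few genes a share says little: 33.3% were higher and 16.7% lower in monolayers, where 9.6% of all tested genes were called each way, and 16.7% each way in gels, where 11.5% were higher and 12.4% lower. JUN, the AP-1 subunit that binds beside ETS factors at composite sites, measured 169 and 159 CPM in the knockout monolayers against 213 and 214 CPM in the control monolayers. In gels it measured 199 and 199 CPM in knockout against 300 and 296 CPM in control libraries. JUN fell in both cultures, by 0.38 log2 in monolayers (edgeR adjusted p = 1.91e-07) and 0.58 log2 in gels (edgeR adjusted p = 5.81e-12). USF1, a basic helix-loop-helix factor, rose in knockout monolayers (log2 0.31, edgeR adjusted p = 0.00136), a call lost without the second control monolayer library (0.23, edgeR adjusted p = 0.0532). CREBBP, a histone acetyltransferase, rose in knockout gels (log2 0.27, edgeR adjusted p = 0.00268), a call lost without the second knockout gel library (0.22, edgeR adjusted p = 0.0583).

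The next list holds genes that ERK signalling induces, that Capicua represses, or both, and that so share regulators with the PEA3 genes. All 18 listed were tested. In knockout monolayers 4 were higher and 9 lower, and in knockout gels 3 were higher and 9 lower, with medians of -0.04 and -0.16 log2. The share lower was 50% in each culture, against 9.6% of all tested genes in monolayers and 12.4% in gels, and the share higher was 22.2% and 16.7%, against 9.6% and 11.5%. This list, like the others here, was chosen with earlier results of these data known, so these shares describe the list and test nothing. The number lower in monolayers was 5 without the second control library and 5 without the second knockout library. The number higher in monolayers was 2 without the first control library, and the number higher in gels was 1 without the first control gel library. In gels that number was 5 without any one of the first control monolayer, the second control monolayer and the first knockout monolayer library, and 5 or 6 under 6 other settings.

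DUSP6, the phosphatase that switches off ERK, measured 240 and 250 CPM in the knockout monolayers against 350 and 383 CPM in the control monolayers, and 335 and 333 CPM in the knockout gels against 496 and 496 CPM in the control gels. It fell by 0.58 log2 in monolayers (edgeR adjusted p = 2.1e-11) and by 0.57 log2 in gels (edgeR adjusted p = 9.83e-12), close to the values of ETV1 and ETV4. DUSP5, a nuclear ERK phosphatase, measured 92.4 and 89.7 CPM in knockout against 149 and 160 CPM in control monolayers, and 127 and 120 CPM in knockout against 154 and 148 CPM in control gels (log2 -0.76 and -0.29, edgeR adjusted p = 4.14e-13 and 7e-05). DUSP4, another phosphatase of this class, fell by 0.43 log2 in gels (edgeR adjusted p = 2.78e-09). In monolayers it fell by 0.14 (edgeR adjusted p = 0.0272), and 5 of 8 fits that left out 1 library lost that call. The next genes were named after their values were seen. SPRY1 and SPRY4, which encode Sprouty inhibitors of receptor signalling, fell by 0.70 and 0.36 log2 in knockout monolayers and by 0.54 and 0.36 log2 in knockout gels. EPHA2, an ephrin receptor, fell by 0.21 and 0.28 log2 in monolayers and gels. The immediate-early factor EGR1 went the other way, at 106 and 94.2 CPM in knockout against 69.8 and 73.6 CPM in control monolayers (log2 0.48, edgeR adjusted p = 1.33e-07). In gels EGR1 rose by 0.15 log2 (edgeR adjusted p = 0.034), a call that upper-quartile scaling ended (log2 0.13, edgeR adjusted p = 0.0646). The DESeq2 test ended it too (log2 0.16, DESeq2 adjusted p = 0.0593), as did 3 of 8 fits that left out 1 library. IER3, another early-response gene, rose by 0.25 and 0.22 log2 in monolayers and gels.

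**Figure D4:**
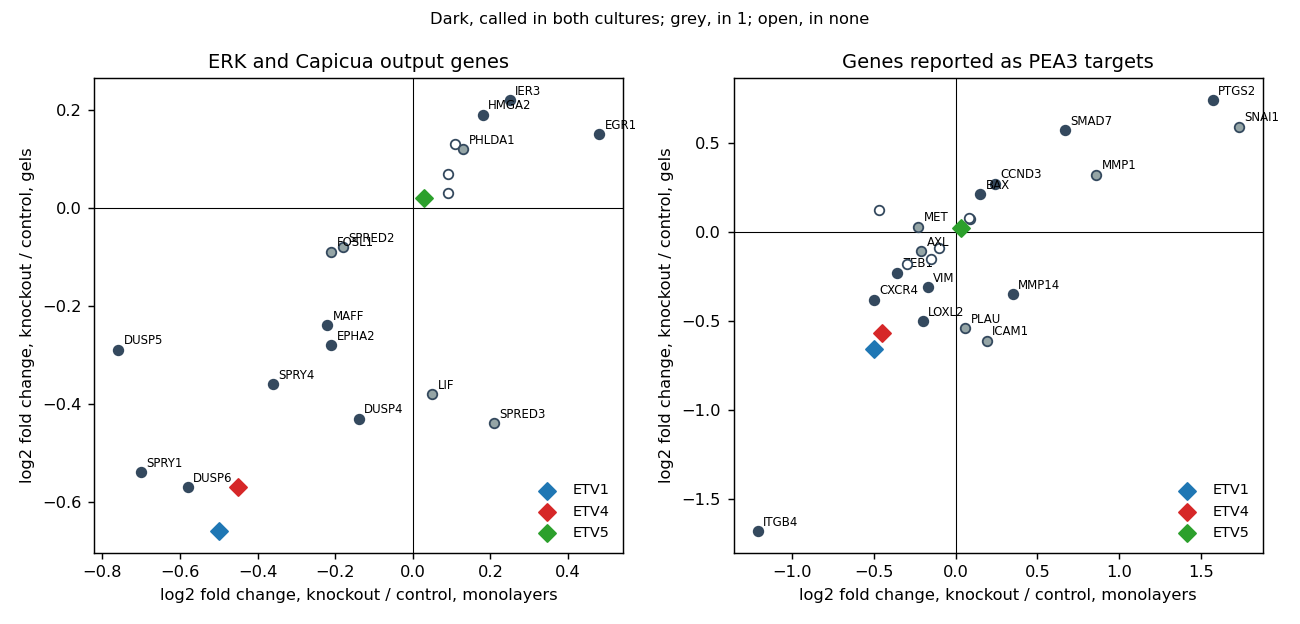
Log2 fold change of knockout over control in gels (vertical) against monolayers (horizontal) for tested genes of 2 lists, with ETV1, ETV4 and ETV5 as diamonds. Dark points were called in both cultures, grey in 1 and open in none. DUSP6 (-0.58 and -0.57) lies nearest to ETV1 and ETV4 in the left panel, and ITGB4 (-1.21 and -1.68) lies lowest in the right panel.

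Since ETV1 and several ERK output genes moved the same way, their promoters were searched for the Capicua octamers TGAATGAA and TGAATGGA on both strands. A window that held both was counted once under either. RefSeq windows on GRCh38.p14 run from 250 bases before to 50 bases after a start site. Among the 3 members 1, ETV1, was matched, with 6 windows. The one below is the only one of the 6 with an octamer, in capitals, which begins 125 bases before the start site, on the strand of the gene.
ETV1 chr7:13991376-13991675, minus strand: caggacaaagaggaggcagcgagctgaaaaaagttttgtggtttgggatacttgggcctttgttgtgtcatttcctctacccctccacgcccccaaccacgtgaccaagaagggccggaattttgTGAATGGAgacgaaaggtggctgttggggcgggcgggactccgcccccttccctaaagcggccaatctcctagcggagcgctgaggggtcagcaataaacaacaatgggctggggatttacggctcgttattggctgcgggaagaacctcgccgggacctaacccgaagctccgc
Of the 18 output genes 11 had a window and 3 of these held an octamer, shown in capitals with 6 bases on either side to set beside that of ETV1. The coordinates are those of the octamer.
EPHA2 chr1:16156096-16156103, minus strand: agggcaTGAATGAAcaggag
MAFF chr22:38201967-38201974, plus strand: tttttaTGAATGAAaggaat
SPRED3 chr19:38389599-38389606, plus strand: tttttgTGAATGAAatgctc
They begin 34, 27 and 192 bases before the start sites of EPHA2, MAFF and SPRED3. Of all 35116 windows, 922 (2.63%) held either octamer, which is 879 of 27305 genes (3.22%). MAFF, a small MAF factor, fell by 0.22 log2 in monolayers (edgeR adjusted p = 0.00768), and 2 of 8 fits that left out 1 library lost that call. In gels MAFF fell by 0.24 log2 (edgeR adjusted p = 0.00226), a call that the length and GC correction ended (log2 -0.12). SPRED3, an inhibitor of the pathway, measured 17.4 and 16.3 CPM in knockout gels against 21.7 and 24 CPM in control gels (log2 -0.44, edgeR adjusted p = 0.000964). In monolayers it lay higher, at 23 and 19 CPM in knockout against 18 and 18.2 CPM in control libraries, without a call (log2 0.21, edgeR adjusted p = 0.137), and was called higher without the second knockout monolayer library (0.35, edgeR adjusted p = 0.0391). DUSP6 and SPRY4 had 1 window each and SPRY1 had 2, none of them with an octamer. A match is a run of letters and not a measured binding site. The ETS core GGAA was present in 95.5% of all windows and is no mark of these promoters.

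Genes reported elsewhere as PEA3 targets numbered 31, of which 22 were tested. In knockout monolayers 7 were higher and 7 lower, and in knockout gels 4 were higher and 8 lower, with medians of -0.02 and -0.10 log2. In monolayers 31.8% were thus called each way, beside 9.6% of all tested genes, and in gels 18.2% were higher and 36.4% lower, beside 11.5% and 12.4%. The number lower in monolayers was 4 without the second control library and 3 without the second knockout library. ITGB4, the integrin beta 4 subunit of hemidesmosomes, measured 152 and 146 CPM in the knockout monolayers against 329 and 362 CPM in the control monolayers, and 167 and 165 CPM in the knockout gels against 556 and 510 CPM in the control gels. Its falls of 1.21 log2 in monolayers (edgeR adjusted p = 1.46e-18) and 1.68 log2 in gels (edgeR adjusted p = 4.22e-23) were larger than those of ETV1 and ETV4 themselves. PTGS2, which encodes the cyclooxygenase COX-2, measured 24.8 and 30.9 CPM in knockout against 9.22 and 9.56 CPM in control monolayers, and 34.5 and 35.8 CPM in knockout against 20.1 and 22 CPM in control gels. It rose by 1.57 log2 in monolayers (edgeR adjusted p = 1.14e-13) and 0.74 log2 in gels (edgeR adjusted p = 8.47e-08).

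PLAU, the urokinase protease, measured 298 and 305 CPM in the knockout gels against 437 and 442 CPM in the control gels. It fell by 0.54 log2 in gels (edgeR adjusted p = 8.6e-12) and had a log2 difference of 0.06 in monolayers. The genes that follow were again named after their values were seen. MMP1, a matrix protease, rose by 0.86 log2 in monolayers (edgeR adjusted p = 3.03e-05) and was not called in gels (0.32, edgeR adjusted p = 0.0611). SNAI1 rose by 1.73 log2 in monolayers (edgeR adjusted p = 0.000229) and was not called in gels (0.59, edgeR adjusted p = 0.291). MMP14, the membrane-bound collagenase, measured 1070 and 1040 CPM in knockout against 801 and 861 CPM in control monolayers, and 856 and 820 CPM in knockout against 1070 and 1060 CPM in control gels. It rose by 0.35 log2 in monolayers (edgeR adjusted p = 3.9e-07) and fell by 0.35 log2 in gels (edgeR adjusted p = 3.33e-07). ICAM1, a cell adhesion molecule, fell by 0.61 log2 in gels, at 20.5 and 20.7 CPM in knockout against 32.1 and 30.9 CPM in control libraries. In monolayers it measured 44.9 and 47.6 CPM in knockout against 42.1 and 39 CPM in control libraries, without a call (log2 0.19, edgeR adjusted p = 0.0608). ZEB1, a repressor of epithelial genes, fell by 0.36 and 0.23 log2 in monolayers and gels. SMAD7, an inhibitor of TGF-beta signalling, rose by 0.67 and 0.57 log2 and CCND3, a D-type cyclin, by 0.24 and 0.27 log2. Whether any of these genes is bound by a PEA3 factor in these cells was not measured.

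Of 25 other ETS genes 16 were tested, and in knockout monolayers 4 were higher and 1 lower, while in knockout gels 1 was higher and 2 lower, with medians of 0.12 and -0.03 log2. These are 25% higher and 6.25% lower in monolayers, against 9.6% each way over all tested genes, and 6.25% higher and 12.5% lower in gels, against 11.5% and 12.4%. Without either first monolayer library, knockout or control, 1 was higher in monolayers, and without either knockout monolayer library 0 were lower. In gels 0 were higher without the second control library, and 2 without the first knockout gel or the first control monolayer library. ELK3, an ETS factor of the ternary complex group, averaged 180 CPM in knockout gels and 214 CPM in control gels (log2 -0.26, edgeR adjusted p = 0.00018). EHF, an epithelial ETS factor, averaged 81.9 CPM in knockout monolayers and 66.1 CPM in control monolayers (log2 0.31, edgeR adjusted p = 0.000335). ELF4 averaged 47.5 CPM in knockout gels and 57.9 CPM in control gels (log2 -0.29, edgeR adjusted p = 0.00196). None of the 25 fell as far as ETV1 or ETV4 with a call.

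The genes whose profile over the 8 libraries was most like that of a member were found by the root-mean-square difference between centred log2 CPM values, among 10831 genes with a mean of at least 5 CPM. Likeness is a description, since all profiles share the libraries and their scaling. Nearest to ETV1 were CD96 (0.0315), C1orf21 (0.0434), ZNF438 (0.0539), NFE2L3 (0.0618) and MYO5C (0.0668), where the median over all candidates was 0.326. CD96 had log2 knockout differences of -0.49 in monolayers and -0.74 in gels. Nearest to ETV4 were SMTN (0.0373), RNF182 (0.0491), SVIL (0.0574), DHCR7 (0.0579) and PXDN (0.0589), with a median of 0.3 over all candidates. SMTN had log2 knockout differences of -0.44 in monolayers and -0.49 in gels. Nearest to ETV5 were HEBP1 (0.0207), PLEKHB2 (0.0226), RNF14 (0.0237), RNF13 (0.0244) and DPF2 (0.03), with a median of 0.135, and these are genes that hardly varied, as ETV5 did (SD of its log2 profile 0.041, against 0.314 for ETV1 and 0.285 for ETV4).

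The chromosome around each gene was examined because cutting by Cas9 is known to be followed at times by loss of the stretch of chromosome beyond the cut. No tested gene starts within 1 Mb of ETV1. Within 1 Mb of ETV4, 50 genes were tested, of which 4 were higher and 5 lower in knockout monolayers and 3 higher and 10 lower in knockout gels, with medians of -0.07 and -0.05 log2. Within 1 Mb of ETV5, 23 genes were tested, of which 1 was higher and 3 lower in monolayers and 2 higher and 3 lower in gels, with medians of -0.07 and -0.05 log2. ETV4 itself had -0.45 and -0.57. Over all tested genes 9.6% were higher and 9.6% lower in monolayers, and 11.5% higher and 12.4% lower in gels. The nearest tested coding genes on either side of ETV4, DHX8 and DUSP3, had log2 differences of 0.09 and -0.08 in monolayers and 0.09 and -0.31 in gels, where DUSP3 passed (edgeR adjusted p = 0.000134). On either side of ETV5, TRA2B had 0.08 in both cultures, IGF2BP2, an RNA-binding protein gene, had -0.42 in monolayers and -0.29 in gels (edgeR adjusted p = 8.4e-08 and 3.8e-05), and DNAJB11 had 0.20 and 0.18, calls that 2 of 8 and 3 of 8 fits without 1 library lost. The nearest tested coding genes around ETV1 lie further off. SCIN, which starts at -1420 kb from ETV1, fell in monolayers (-1.30, edgeR adjusted p = 0.00161). Its level there was low, at 1.03 CPM in knockout and 2.59 CPM in control libraries. ANKMY2, which starts at 2650 kb, fell in gels (-0.27, edgeR adjusted p = 0.013, lost in 2 of 8 fits without 1 library).

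Over the genes between a member and the nearer end of its chromosome, the median log2 difference was 0.05 in monolayers and -0.03 in gels for 78 genes beyond ETV1, of which 15 were higher and 4 lower in monolayers and 4 higher and 13 lower in gels. It was -0.05 and -0.10 for 427 genes beyond ETV4, of which 18 were higher and 65 lower in monolayers and 30 higher and 93 lower in gels. It was -0.11 and -0.10 for 70 genes beyond ETV5, of which 2 were higher and 15 lower in monolayers and 4 higher and 10 lower in gels. The shares over all tested genes to set beside these counts are again 9.6% each way in monolayers and 11.5% higher and 12.4% lower in gels. Beyond ETV4 and beyond ETV5, more genes were thus called lower than higher in both cultures. Beyond ETV1 more were higher in monolayers and more were lower in gels. Whether any stretch of chromosome was lost was not tested.

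**Figure D5:**
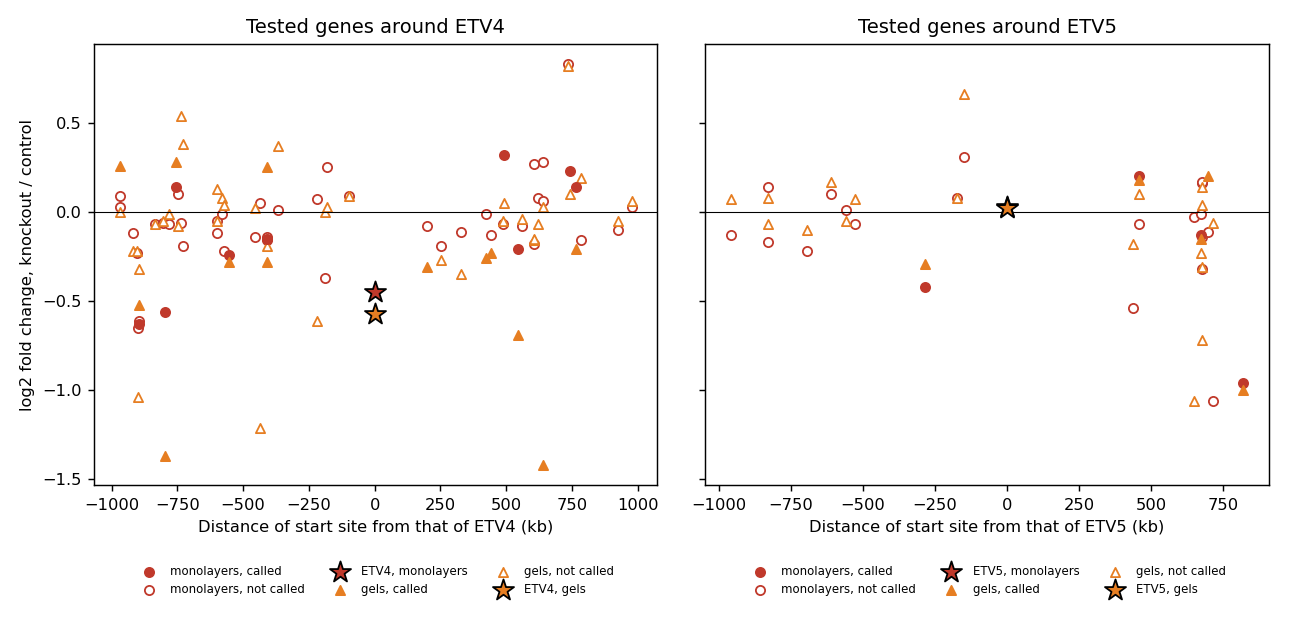
Log2 fold change of knockout over control for tested genes within 1 Mb of ETV4 (left) and ETV5 (right), by distance of the start sites in kb along the chromosome, with circles for monolayers, triangles for gels and stars for the member itself. Filled symbols were called. The medians of the neighbours lie at -0.07 in monolayers and -0.05 in gels around both genes.

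The cell line was checked by its markers. VIM, the mesenchymal filament gene that marks this line, averaged 5320 CPM in the knockout monolayers and 6000 CPM in the control monolayers, and 5860 CPM in the knockout gels and 7280 CPM in the control gels. Of the 8 mesenchymal markers of this line 2 were higher and 4 lower in knockout monolayers, and 2 higher and 2 lower in knockout gels. The higher ones were CD44, at 431 CPM in knockout and 369 CPM in control monolayers and 580 CPM in knockout and 448 CPM in control gels, and CAV1, at 627 and 524 CPM in knockout and control monolayers and 633 and 563 CPM in knockout and control gels. The luminal markers ESR1 and PGR reached at most 2 counts in any library and CDH1 at most 7. The luminal factor gene GATA3, with 129 to 236 counts, averaged 11.6 CPM in knockout and 7.77 CPM in control monolayers (log2 0.58, edgeR adjusted p = 0.00108) and 12.6 CPM in knockout and 9.24 CPM in control gels (log2 0.45, edgeR adjusted p = 0.00677). EPCAM had 214 to 433 and FOXA1 34 to 70 counts, without a call in either knockout comparison. KRT8 and KRT18, keratins of luminal cells that this line also expresses, rose by 0.32 and 0.31 log2 in knockout monolayers and by 0.21 and 0.28 log2 in knockout gels, and their part in the PEA3 differences was not tested. SPARC, listed as a mesenchymal marker, averaged 0.808 CPM at most in any group. Of the leukocyte markers CD3E and ITGAM reached 2 counts and PTPRC 21. Of the endothelial markers CDH5 reached 1 count and VWF 7, while PECAM1 had 62 to 186 counts and KDR 40 to 116. PECAM1 fell in knockout gels (log2 -0.79, edgeR adjusted p = 0.000543). Of the fibroblast markers, COL1A2, DCN and LUM reached at most 4, 1 and 6 counts, and COL1A1 had 170 to 335 and PDGFRB 45 to 133 counts. The mitochondrial genome gave 2.65 to 4.47% of all counts.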

How the data were processed

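The deposited values are raw counts for each gene symbol in each library. Per the submitters' processing notes, the authors used FastQC 0.11.9, STAR 2.7.9a, featureCounts and R 4.1.1 with hg38 to make these counts. The sources used here give neither the annotation nor the strand setting. The members and lists were chosen with earlier results of these data known.

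Genes were kept by filterByExpr (minimum count 10), scaled by TMM and tested by the quasi-likelihood F-test of edgeR 4.0.16 (R 4.3.3), robust and two-sided, in a model of 4 group means over 8 libraries with 4 residual degrees of freedom. P-values were adjusted by Benjamini-Hochberg over 15568 genes, with a threshold of 0.05. The members' tests had 34.3 degrees of freedom in all, since edgeR draws on the spread of other genes, and the common biological coefficient of variation was 4.03%. The script was tested on simulated data. Replicates varied beyond counting error (chi-square per degree of freedom 2.54 to 6.31). A difference between members is that of their log2 changes, with an interval from both SEs.

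Of 61228 symbols, 36441 matched GENCODE 29 by name and 20521 by Ensembl ID. Likeness used 0.5 CPM as pseudocount. The genes named were the members, the 5 most like each, up to 3 per list with the smallest adjusted p among those called, and the nearest 2 tested coding genes on each side. Others, among them FOS, MAFF, SPRED3 and LOXL2, fall outside this rule, and only some are marked as named after their values were seen. Alternatives were DESeq2 1.42.0 (test and size factors), limma 3.58.1 (voom), other scalings, no filter, a replicate block, a length and GC correction, and leaving out each library. Some genes that this rule or the marker lists name are not reported here.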

Additional observations from a re-analysis of the deposited data

Results flagged for a closer look

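None of ETV1, ETV4 and ETV5 had an interaction past the threshold. Over all tested genes 2.67% had a positive and 3.94% a negative interaction. The genes named were in part chosen by a small adjusted p in either culture or after their values were seen. A count among them is therefore only a description. Besides the members, 17 of the genes named had an edgeR interaction past the threshold (adjusted p under 0.05), given here in log2 units. Of the ERK output genes these were DUSP5 at 0.47, DUSP4 at -0.29, SPRED3 at -0.65 and EGR1 at -0.33. Of the reported PEA3 targets they were ITGB4 at -0.47, PTGS2 at -0.83, PLAU at -0.61, MMP14 at -0.70, ICAM1 at -0.80 and LOXL2, a lysyl oxidase, at -0.29. Upstream they were MAP2K1 at -0.27, EGFR at 0.33, MET at 0.26 and TRIB2 at -0.30. Among other ETS genes they were ELK3 at -0.31 and EHF at -0.34, and among the genes most like ETV4 it was DHCR7 at -0.33. DUSP5, DUSP4, ITGB4, PTGS2, PLAU, MMP14 and ICAM1 kept the call in each of the 8 fits that left out 1 library, and the others lost it in 1 to 7 of 8. The length and GC correction also ended the calls of MAP2K1 (-0.19), TRIB2 (-0.23), DHCR7 (-0.17), EGR1 (-0.2) and LOXL2 (-0.13).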

How the results depend on the processing

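The falls of ETV1 and ETV4 and the absence of a call for ETV5 held under each of 18 alternatives in both cultures: ETV1 lay between -0.58 and -0.43 log2 in monolayers and -0.68 and -0.62 in gels, ETV4 between -0.53 and -0.38 and between -0.60 and -0.49, ETV5 between -0.02 and 0.07 and between -0.03 and 0.09. The replicate block changed no call on a member by itself, and replicate differences correlated by -0.063 to 0.082 between groups, so the shared numbers were not taken as pairs.

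The culture comparison moved more. ETV4 in control gels against monolayers was 0.14 with upper quartiles, 0.10 with library size alone and 0.17 with the DESeq2 test (adjusted p = 0.0855), and 0.10 to 0.26 with 1 library left out. The length and GC correction, with which the median of all genes in knockout gels over monolayers was 0.068, against -0.006 without it, made ETV4 higher in knockout gels than in knockout monolayers (0.21, adjusted p = 0.00283, and 0.21 with the replicate block) and ETV1 higher in control gels than in control monolayers (0.18, adjusted p = 0.00266, and 0.18 with the block). With the block and this correction the ETV1 interaction was -0.21 (adjusted p = 0.045), and with the correction the ETV4 interaction was at most 0.04. The cause was not tested.

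With the DESeq2 test, genes called numbered 1816 in knockout monolayers (2989 with edgeR), 2463 in knockout gels (3721), 2439 in control gels against monolayers (4158) and 653 in the interaction (1028). With 1 library left out they ranged from 1848 to 3224, 2106 to 3914, 2144 to 4501 and 413 to 1334. Where this left 1 library in a group, it was assumed to vary like the other groups. Of 3703 alternative values for the other genes named, 152 lost and 49 gained a call and 0 reversed. Depth limits ETV4 most, at a counting error of up to 3.08%.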
